A study of Mus musculus with 8 samples.

Results

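The 10 genes described here are regulators, secreted products and lipid-handling genes of fat cells, chosen by name: Pparg, Cebpa, Fabp4, Lpl, Acsl1, Plin4, Plin1, Adipoq, Rarres2 and Cfd. All 10 were found among the 23500 genes of the deposited tables, in 12 transcript entries. They were measured in mouse bone marrow-derived mesenchymal stem cells, stromal progenitors that can form bone, cartilage and fat, all lacking p53. Each of 4 clones, numbered 2, 4, 8 and 12, was transduced with a retrovirus carrying cFos, the AP-1 subunit encoded by Fos, or with a retrovirus carrying luciferase (Luc), an enzyme used as the control. This gave 4 cFos and 4 Luc libraries, 1 of each per clone, from cells below 20 passages, and "cFos 8" below stands for the cFos library of clone 8. Every group is p53-null, so both arms carry the deletion, each arm of a clone being a single culture. Each line descends from 1 clone, so traits of a line and of its founding cell cannot be told apart.

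The choice of these genes was made with the cFos and Luc values and the clone values of these same libraries in view. Their levels and differences between arms and clones are therefore given as a description, with no test. The split between the Pparg transcripts, which the summed levels do not use, was tested. Tests across all genes are given for lists of other genes, of fat cells and of stromal, blood and endothelial cells. These lists were also drawn up with earlier results of these data known, so their counts are not independent of that knowledge.

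Levels are FPKM, which scales fragments to transcript length and to the mapped fragments of the library, as the authors deposited them, so values of different genes can be set side by side per length. Aligned sequence came to 6.93 to 9.14 gigabases per library, and 10970 to 11121 genes per library reached 1 FPKM. Fos was at 589, 675, 1019 and 505 FPKM in cFos clones 2, 4, 8 and 12, against 76.2, 41.1, 302 and 43.5 FPKM in the Luc libraries of the same clones. The stromal collagen gene Col1a2 was abundant, at 2049 ± 452 FPKM in cFos and 1550 ± 724 FPKM in Luc (SD, n = 4 each). Of 23 marrow stromal and preadipocyte markers, 16 reached 1 FPKM in 4 or more libraries. Dpp4, Pi16 and Icam1 were the 3 that stayed under 1 FPKM in every library. Thy1, Nt5e, Cd34 and Apoe reached 1 FPKM in some libraries, but in fewer than 4. Eng was low, at 1.12 ± 0.749 FPKM in cFos and 0.729 ± 0.528 FPKM in Luc. Of 12 blood cell and macrophage markers in the files, 10 stayed under 1 FPKM in every library, Tyrobp was at 0 in all 8, and the list summed to 1.70 to 2.58 FPKM in cFos and 2.50 to 3.05 FPKM in Luc.

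Fat cell formation is driven by Pparg, a nuclear receptor that binds DNA with a retinoid X receptor, and by Cebpa, a leucine zipper factor. In cultured fat cell precursors the 2 genes maintain each other's expression once they are switched on, and together they activate genes for fatty acid uptake, lipid droplets and secreted adipokines. Marrow stromal cells can carry part of this programme without storing visible fat.

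Sequences around the transcription starts are shown for the regulators and for a lipid droplet and an adipokine gene whose levels differed widely between clones, so that the motif letters of the factors named here can be read in place. RefSeq windows (build GRCm38.p6, 250 bases before to 50 after an annotated start) were at hand for 7 of the 10 genes, 10 windows in all. Fabp4, Lpl and Rarres2 are named only. Capitals mark matches on either strand to 3 motifs. The first is TTGCNNAA, bound by C/EBP factors such as CEBPA. The second is the nuclear receptor site AGGTCA, searched alone. The third is the TATA box, which places the start of transcription in some genes and was searched as TATAAA. The AP-1 site of Fos and Jun pairs was searched as TGAGTCA in the same way. The paired site that PPARG binds with its partner was searched as 2 copies of the receptor site in a row with any 1 base between them, so each match to it also holds the single site.
Pparg, upstream start (chr6:115360894-115361193, plus strand): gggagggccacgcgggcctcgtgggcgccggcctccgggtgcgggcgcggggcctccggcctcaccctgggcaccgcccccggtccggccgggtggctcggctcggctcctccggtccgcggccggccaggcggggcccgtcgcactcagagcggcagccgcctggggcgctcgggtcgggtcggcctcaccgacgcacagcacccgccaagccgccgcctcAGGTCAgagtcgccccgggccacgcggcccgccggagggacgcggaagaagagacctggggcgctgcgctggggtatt
Pparg, downstream start (chr6:115421816-115422115, plus strand): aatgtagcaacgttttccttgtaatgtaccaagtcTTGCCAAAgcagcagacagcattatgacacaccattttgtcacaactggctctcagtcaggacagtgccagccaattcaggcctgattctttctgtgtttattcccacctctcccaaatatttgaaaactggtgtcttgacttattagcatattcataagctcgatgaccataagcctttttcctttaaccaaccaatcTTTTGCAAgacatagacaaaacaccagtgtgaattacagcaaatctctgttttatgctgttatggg
Cebpa (chr7:35119043-35119342, plus strand): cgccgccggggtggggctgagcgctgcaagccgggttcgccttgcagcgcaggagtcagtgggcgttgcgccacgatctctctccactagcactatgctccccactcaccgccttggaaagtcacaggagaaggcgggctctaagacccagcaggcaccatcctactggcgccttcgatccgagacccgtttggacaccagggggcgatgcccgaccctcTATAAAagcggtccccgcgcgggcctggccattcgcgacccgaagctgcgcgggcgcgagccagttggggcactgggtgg
Plin1 (chr7:79732727-79733026, minus strand): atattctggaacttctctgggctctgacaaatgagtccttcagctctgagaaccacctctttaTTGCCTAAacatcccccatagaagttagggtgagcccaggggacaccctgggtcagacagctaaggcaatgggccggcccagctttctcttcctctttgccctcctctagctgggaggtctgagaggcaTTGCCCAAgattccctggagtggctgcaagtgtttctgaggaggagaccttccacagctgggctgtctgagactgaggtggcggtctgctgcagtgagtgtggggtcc
Adipoq (chr16:23146286-23146585, plus strand): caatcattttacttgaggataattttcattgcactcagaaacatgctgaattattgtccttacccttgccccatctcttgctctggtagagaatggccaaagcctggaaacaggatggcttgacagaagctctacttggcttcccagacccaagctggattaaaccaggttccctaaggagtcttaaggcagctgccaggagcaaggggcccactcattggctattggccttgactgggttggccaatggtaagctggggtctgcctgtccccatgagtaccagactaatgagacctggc
The C/EBP letters were found in the downstream Pparg window, 16 and 215 bases before the start, and in the Plin1 window, 58 and 187 bases before it. They were in 2 of the 10 windows of these genes, against 10.8% of all 32851 windows of this length. The AP-1 letters were in 0 of the 10, against 5.20% of all windows, and the paired sites in 0 of the 10, against 0.0396%. Single receptor sites were in 2 of the 10, both of Pparg, against 16.3% of all. A further Pparg window (chr6:115362099-115362398), whose sequence is left out above, held a single receptor site and the TATA letters. The TATA letters were in 2 of the 10, that of Cebpa 30 bases before its start, against 13.6% of all. The upstream Pparg window had a GC content of 80.3% and the downstream one 40.3%, with 67.3% for Cebpa. A match describes letters only, and an absent match says nothing about binding outside these windows.

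The 10 genes divided by direction. Pparg, Fabp4, Acsl1 and Plin4 were higher in cFos than in Luc in all 4 clones, while Cebpa, Adipoq, Rarres2 and Cfd were lower in cFos in all 4. Lpl was lower in 3 clones and higher in clone 12, and Plin1 was lower in 3 and higher in clone 4, where both of its values were under 0.1 FPKM. Among all 11162 genes tested, 15.3% were higher and 20.9% lower in cFos in all 4 clones. For none of the 10 did the cFos libraries stand wholly apart from the Luc libraries, which was so for 5.86% of tested genes above and 7.8% below. In bulk RNA such as this, fewer cells expressing a gene and less of its RNA per cell cannot be told apart.

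**Figure D1:**
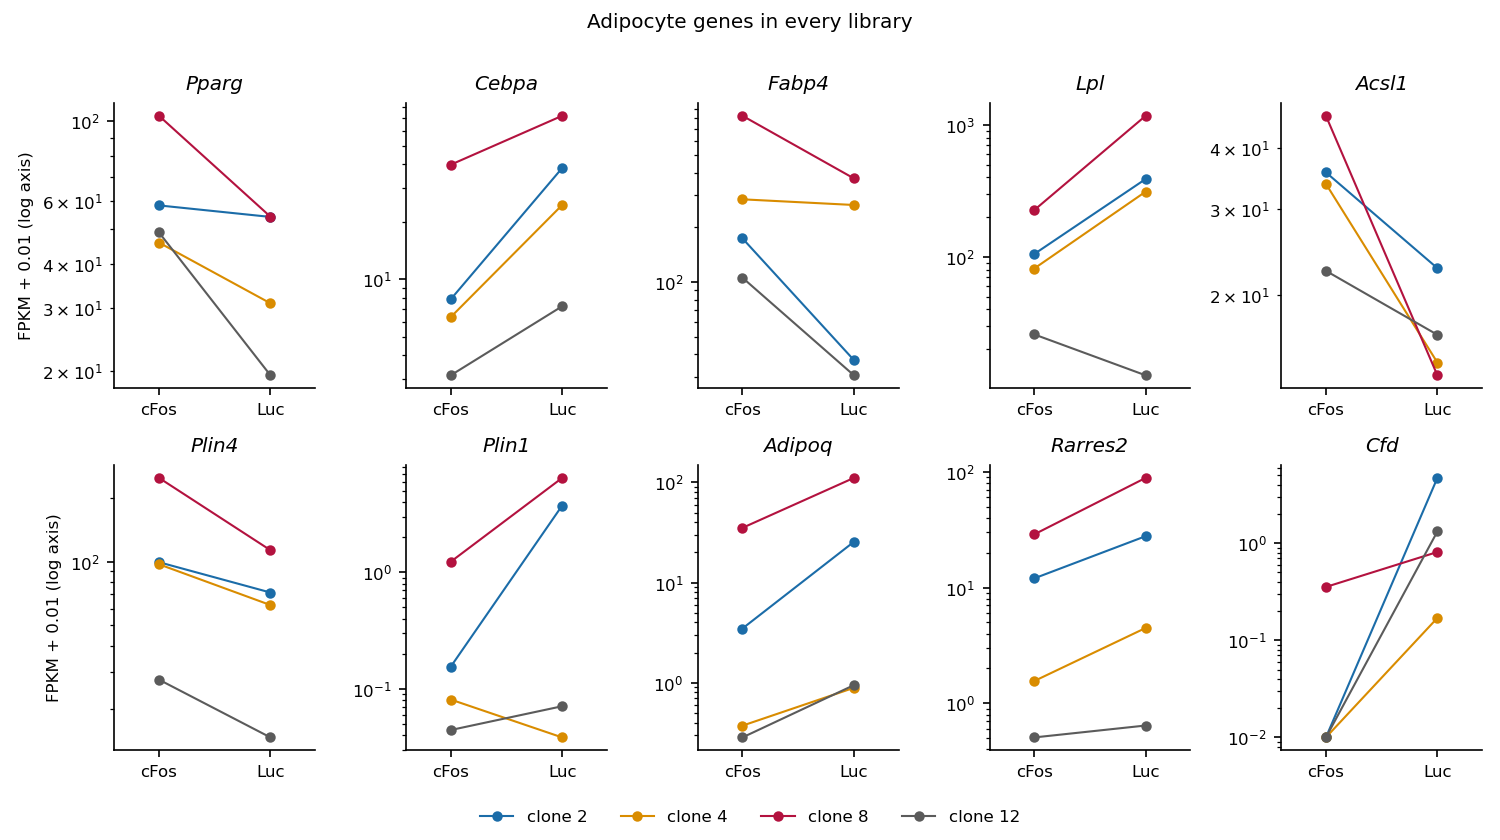
Level of each of the 10 genes in every library, as FPKM plus 0.01 on a log axis, with cFos left and Luc right and a line joining the libraries of a clone. Lines slope the same way in all 4 clones for every gene but Lpl and Plin1, and the clones keep wide gaps for Adipoq and Rarres2.

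Pparg was the regulator that was higher in cFos. It was at 58.2, 45.8, 104 and 48.9 FPKM in cFos clones 2, 4, 8 and 12, against 54.0, 31.0, 54.1 and 19.5 FPKM in Luc. The cFos values of clones 4 and 12 lay below the Luc values of clones 2 and 8, so the arms overlapped. Each clone was higher in cFos, least in clone 2 (1.08-fold) and most in clone 12 (2.51-fold). In clone 2 the deposited confidence limits of the main transcript overlapped, at 52.4 to 58.2 in cFos and 47.6 to 52.9 in Luc. The minor transcript was lower in cFos there, at 2.86 against 3.79 FPKM. Means were 64.1 ± 26.9 FPKM in cFos and 39.6 ± 17.3 FPKM in Luc (SD, n = 4 each), a log2 difference of 0.73 on the scale of log2(FPKM + 0.5), which is used for all differences here. It was 0.43 without Luc 12 and 0.47 without cFos 8. Here and below, leaving out 1 library kept the other library of its clone, in a fit that does not pair the clones. The arms then no longer held the same clones, so such a value also carries differences between clones. The gene lies on chromosome 6, 115311239 to 115440419 (mm9).

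Cebpa, the partner factor, differed in the opposite direction. It was at 7.85, 6.33, 39.9 and 3.13 FPKM in cFos clones 2, 4, 8 and 12, against 38.3, 24.5, 72.0 and 7.22 FPKM in Luc. Each clone was lower in cFos, most in clone 2 (4.88-fold) and least in clone 8 (1.81-fold), while cFos 8 stood above 3 of the 4 Luc libraries. Means were 14.3 ± 17.2 FPKM in cFos and 35.5 ± 27.4 FPKM in Luc (log2 difference -1.51). Without cFos 8 it was -2.20. The gene has no intron, its 2640-base transcript filling the locus (chromosome 7, 35904312 to 35906951, mm9).

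The balance of both regulators differed between the arms in each clone. Pparg exceeded Cebpa per length by 7.42, 7.24, 2.60 and 15.6-fold in cFos clones 2, 4, 8 and 12, against ratios of 1.41, 1.26, 0.752 and 2.70 in Luc. Luc 8 was the 1 library with more Cebpa than Pparg, and in clone 12, the line with least Cebpa, the ratio was highest in both arms.

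Pparg was listed as 2 transcripts with separate starts and shared downstream exons. NM_001127330 begins at the upstream start and encodes the form of the receptor made in many tissues, and NM_011146 begins at the downstream start and encodes the form found mainly in fat cells, which has extra residues at its amino end. GENCODE places NM_011146 at base 115422066 (GRCm38), the start site of the downstream window printed above. It places NM_001127330 at base 115360951, inside the upstream window but before the start site on which that window was built. NM_011146 held 4.91, 4.05, 3.80 and 3.93% of Pparg FPKM in cFos clones 2, 4, 8 and 12, against 7.01, 3.67, 6.42 and 6.42% in Luc. The share was lower in cFos in 3 clones and higher in clone 4, and NM_001127330 carried the rest. The division of reads from shared exons between the transcripts is the authors' estimate. Mean shares were 4.17 ± 0.501% in cFos and 5.88 ± 1.501% in Luc (SD, n = 4 each), a difference of -1.71 percentage points that did not pass (exact two-sided permutation p = 0.143 over 70 arrangements, the smallest possible being 0.0286). Exchanging arms only within clones gave an exact p of 0.250 over 16 exchanges, the smallest possible being 0.125. Without Luc 4 the difference was -2.45 points, with an exact permutation p of 0.0286, the smallest that 4 against 3 libraries can give. That run ignores the pairing and leaves out the Luc library of clone 4, where the share was higher in cFos. Its p was not adjusted for the runs without other libraries, and nothing is read from it. In FPKM, NM_011146 itself ranged from 1.85 to 3.94 in cFos and from 1.14 to 3.79 in Luc.

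**Figure D2:**
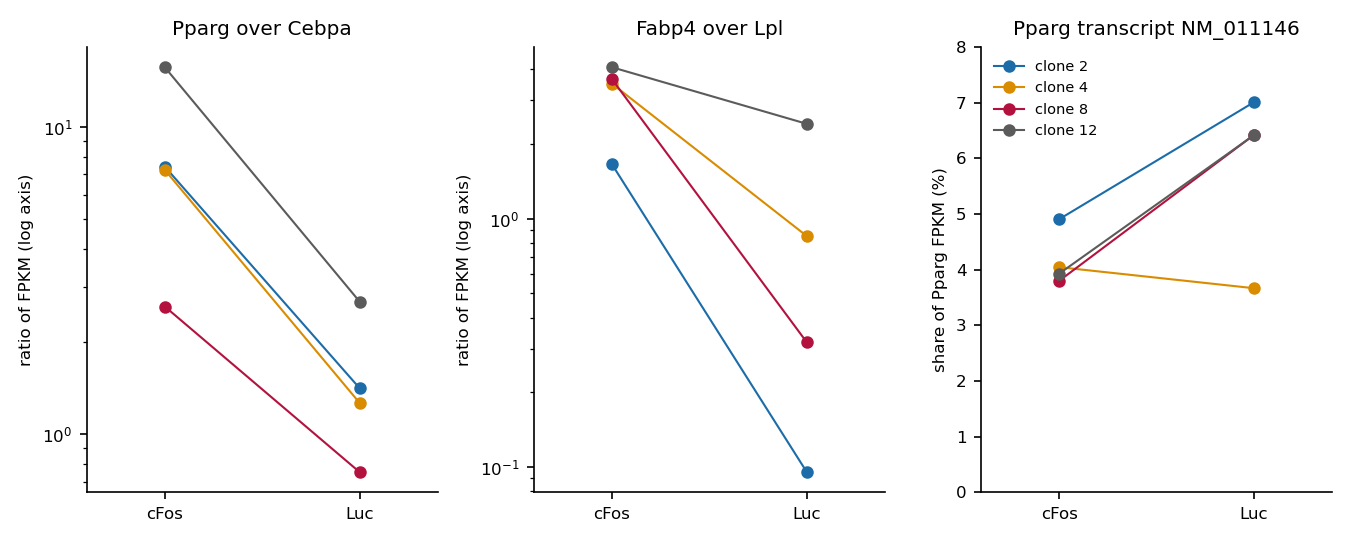
Ratios of FPKM on log axes for Pparg over Cebpa and Fabp4 over Lpl, and the share of Pparg FPKM held by transcript NM_011146 (%), with cFos left and Luc right and a line per clone. Both ratios are higher in cFos in all 4 clones, and the share is lower in cFos in 3 of the 4.

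Genes that move and activate fatty acids also divided. Fabp4, the fatty acid-binding protein of fat cells and macrophages (chromosome 3, 10204343 to 10208576, mm9), was at 174, 285, 824 and 106 FPKM in cFos clones 2, 4, 8 and 12, against 37.1, 265, 372 and 30.6 FPKM in Luc. It was the most abundant of the 10 genes in every cFos library, and the difference was 4.69-fold in clone 2 and 3.45-fold in clone 12 but 1.07-fold in clone 4. Means were 347 ± 326 FPKM in cFos and 176 ± 170 FPKM in Luc (log2 difference 1.31, and 0.73 without Luc 12, 0.75 without cFos 8 and 0.82 without Luc 2).

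Lpl, lipoprotein lipase, which releases fatty acids from circulating lipoproteins (chromosome 8, 71404454 to 71430831, mm9), was at 105, 81.6, 226 and 25.9 FPKM in cFos clones 2, 4, 8 and 12, against 389, 312, 1171 and 12.7 FPKM in Luc. In Luc 8 it ranked 53rd of all genes by FPKM. It was lower in cFos by 3.70 to 5.18-fold in clones 2, 4 and 8, and higher by 2.04-fold in clone 12, where both arms were low. The log2 difference was -1.30 over all libraries, -2.62 without Luc 12, -0.73 without cFos 12 and -0.46 without Luc 8. Fabp4 over Lpl was 1.66, 3.50, 3.65 and 4.07 in cFos clones 2, 4, 8 and 12, against 0.0953, 0.851, 0.318 and 2.41 in Luc, so Fabp4 exceeded Lpl in every cFos library and in Luc 12.

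Acsl1, which couples long-chain fatty acids to coenzyme A (chromosome 8, 47556396 to 47621404, mm9), was at 35.6, 33.7, 46.5 and 22.4 FPKM in cFos clones 2, 4, 8 and 12, against 22.6, 14.5, 13.7 and 16.5 FPKM in Luc. The arms met at a single point, with cFos 12 just below Luc 2, and the difference was 3.40-fold in clone 8 and 1.35-fold in clone 12. It was the member that varied least over the libraries, 3.40-fold from lowest to highest.

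The perilipins coat lipid droplets and control access of lipases to the stored fat. Plin4 (chromosome 17, 56240014 to 56249225, mm9) was at 99.5, 97.2, 249.6 and 27.6 FPKM in cFos clones 2, 4, 8 and 12, against 71.4, 62.3, 113 and 14.7 FPKM in Luc. Each clone was higher in cFos, by 1.39 to 2.20-fold, while clone 12 stayed below the other clones in both arms. The log2 difference of 0.78 became 0.18 without Luc 12, 0.30 without cFos 8 and 1.35 without cFos 12. The Plin4 locus overlaps that of Hdgfl2, at 21.4 to 38.8 FPKM in cFos and 27.1 to 41.8 FPKM in Luc, and whether strand was used in counting is not given in the sources used here.

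Plin1, the perilipin of large fat cell droplets (chromosome 7, 86866050 to 86877662, mm9), was near 0 in clones 4 and 12. It was at 0.145, 0.0709, 1.22 and 0.0343 FPKM in cFos clones 2, 4, 8 and 12, against 3.73, 0.0283, 6.44 and 0.0609 FPKM in Luc. Clones 2 and 8 held nearly all of it, and there it was lower in cFos by 25.8-fold and 5.28-fold. In clone 4 the deposited confidence limits of its main transcript, NM_001113471, were 3.00e-04 to 0.141 in cFos and 0 to 0.0779 in Luc, which overlap. Plin4 exceeded Plin1 per length in every library, by at least 17.6-fold.

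The adipokine genes were lower in cFos in all 4 clones. Adipoq, which encodes adiponectin (chromosome 16, 23146609 to 23158041, mm9), was at 3.47, 0.363, 35.2 and 0.275 FPKM in cFos clones 2, 4, 8 and 12, against 25.5, 0.881, 111 and 0.937 FPKM in Luc. It exceeded 1 FPKM in clones 2 and 8 alone, where it was lower in cFos by 7.36-fold and 3.15-fold. The arms overlapped widely, and Luc 8 exceeded Luc 4 by 126-fold. The log2 difference was -1.48 over all libraries and ranged from -2.65 without cFos 8 to -0.26 without Luc 8. It moved by over 1.5 times also without Luc 12, Luc 2, Luc 4, cFos 12 or cFos 4. Within clones 2, 4, 8 and 12 it was -2.71, -0.68, -1.64 and -0.89.

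Rarres2 encodes chemerin, an attractant of immune cells that fat secretes (chromosome 6, 48519697 to 48522669, mm9). It was at 12.0, 1.55, 28.7 and 0.498 FPKM in cFos clones 2, 4, 8 and 12, against 27.8, 4.47, 88.5 and 0.633 FPKM in Luc. It was lower in cFos by 2.32 to 3.08-fold in clones 2, 4 and 8, while in clone 12 the deposited confidence limits overlapped, at 0.145 to 0.850 in cFos and 0.269 to 0.998 in Luc. The log2 difference of -1.06 ranged from -2.15 without Luc 12 to -0.05 without Luc 8. It moved by over 1.5 times also without Luc 2, cFos 12, cFos 4 or cFos 8. Within clones 2, 4, 8 and 12 it was -1.18, -1.28, -1.61 and -0.18. Its locus overlaps that of Lrrc61, which stayed between 1.64 and 2.63 FPKM in cFos and between 1.68 and 4.01 FPKM in Luc.

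Cfd, which encodes the complement protease adipsin (chromosome 10, 79353598 to 79355401, mm9), had the lowest mean level of the 10 in each arm. It was listed at 0 in cFos 2, cFos 4 and cFos 12 and at 0.344 FPKM in cFos 8, against 4.70, 0.160, 0.802 and 1.31 FPKM in Luc clones 2, 4, 8 and 12. In clone 8 the deposited confidence limits overlapped, at 0.122 to 0.567 in cFos and 0.466 to 1.14 in Luc. Luc 2 was highest, unlike for Adipoq and Rarres2, which were highest in Luc 8.

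**Figure D3:**
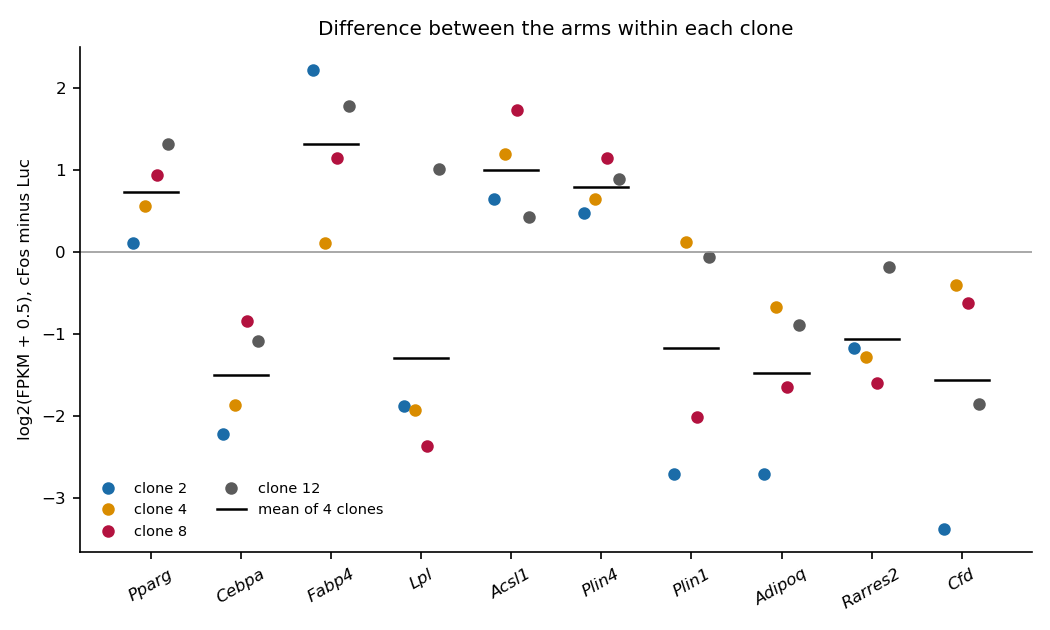
Difference between the cFos and the Luc library of each clone for the 10 genes, on the scale of log2(FPKM + 0.5), with a bar at the mean of the 4 clones. Pparg, Fabp4, Acsl1 and Plin4 lie above 0 in every clone, Cebpa, Adipoq, Rarres2 and Cfd lie below it in every clone, and Lpl in clone 12 lies apart from its other 3 points.

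Levels also varied between clones. Clone 8 had the highest cFos value of all 10 genes and the highest Luc value of 8. Clone 8 was highest in both arms for 7 of the 8 members tested, against 10.4% of tested genes, and clones were part of the choice, so nothing is read from that share. Clone 12 had the lowest value of 8 genes in cFos and of 6 in Luc. Averaged over both arms, clone 8 exceeded clone 12 by 121-fold for Adipoq, 104-fold for Rarres2, 36.2-fold for Lpl and 10.8-fold for Cebpa, but by 2.31-fold for Pparg and 1.55-fold for Acsl1.

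Over all genes, limma (log2 of FPKM plus 0.5, genes reaching 1 FPKM in 4 or more libraries, Benjamini-Hochberg adjusted p under 0.05) called 5.55% between the arms. Of the 8 members that passed the filter, which leaves out Plin1 and Cfd, 1 was called, Acsl1, higher in cFos. With the clone as a block, 8.79% of genes were called, and 5 of the 8 members, Acsl1 and Plin4 higher and Cebpa, Adipoq and Rarres2 lower in cFos. The test of the clone terms called 0.484% of genes and 3 of the 8 members, Plin4, Adipoq and Rarres2, and it called 0 genes without Luc 12, Luc 4 or cFos 4, where 1462, 933 and 1092 had an unadjusted p under 0.05 (limma). The members were chosen on these contrasts, and nothing is read from these counts. Their median log2 difference was -0.17, beside -0.06 over all genes tested.

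Among the tested genes outside the 10, those with levels most like Pparg over the 8 libraries were Arhgef12, Gprc5b, Paqr7, Vps33b and Foxred2. Their Pearson correlations with Pparg, of log2(FPKM + 0.5), were 0.960, 0.951, 0.951, 0.950 and 0.941, with n = 8 libraries that share clones and arms, given as a description. Of the members, Plin4 reached 0.845 and Cebpa 0.370.

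Other genes were taken in 9 lists, 205 genes in all. Beside genes of fat cells, these held anti-adipogenic factors and markers of marrow stromal, blood and endothelial cells. The pooled counts are therefore not of fat cell genes alone. Of 136 that passed the filter, 10 rose and 4 fell in cFos, 7.35% and 2.94%, against 2.92% and 2.62% of all genes tested. In the fit blocked by clone 13 of the 136 rose and 13 fell, as many each way. Of all 11162 genes, 503 (4.51%) rose and 478 (4.28%) fell in that fit. Without the block, the rises numbered 4 without cFos 2, 5 without cFos 4 and 6 without cFos 8, and the falls 2 without cFos 2 and 7 without Luc 12.

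By count, lipid droplet and triglyceride genes gave the most rises, in the list with the most genes tested. Of 24 tested, 4 rose, none fell and 20 did not pass, where 2.92% of all genes tested rose. The median log2 difference was 0.03, and in the blocked fit 6 rose and 1 fell. The adipokine list gave 3 rises among 12 tested. Cav1, caveolin, which forms membrane pits and also sits on droplets, was at 884 ± 153 FPKM in cFos and 67.8 ± 59.4 FPKM in Luc (log2 difference 4.06, SE 0.50, limma adjusted p = 0.00330), and its partner Cavin1 was at 402 ± 122 FPKM in cFos and 170.5 ± 17.4 FPKM in Luc (limma adjusted p = 0.0196). Gpat3, which begins triglyceride synthesis, was at 3.01 ± 0.735 FPKM in cFos and 1.26 ± 0.194 FPKM in Luc, and Lpin2, a phosphatidate phosphatase, at 13.5 ± 2.16 FPKM in cFos and 7.64 ± 0.639 FPKM in Luc. Plin2, the perilipin of most cell types, was at 125 ± 31.5 FPKM in cFos and 67.4 ± 16.7 FPKM in Luc, higher in all 4 clones (limma adjusted p = 0.0788, 0.0149 in the blocked fit and 0.0282 without cFos 12). Pnpla2, the first lipase of stored fat, was at 12.3, 14.2, 41.5 and 5.94 FPKM in cFos clones 2, 4, 8 and 12. It was at 10.8, 7.29, 5.97 and 3.92 FPKM in Luc, and did not pass. Lipe, Abhd5, Mgll and G0s2, further lipolysis genes of this list, had log2 differences of 0.25, -0.014, 2.16 and -0.14. None of them passed. The other calls of the blocked fit were Lpin3, a relative of Lpin2 (log2 difference 1.63, limma adjusted p = 0.0124), which rose, and Hsd17b11, a droplet-associated dehydrogenase (-0.58, limma adjusted p = 0.0295), which fell. The call of Cav1 held without each library. Those of Lpin2 and Cavin1 ended without cFos 2 or cFos 4, and that of Cavin1 also without cFos 8. The call of Gpat3 ended without Luc 2, Luc 4, cFos 2, cFos 4 or cFos 8. For Lpin2, Cavin1 and Gpat3 the limma adjusted p reached 0.0710, 0.0652 and 0.0921. With the clone as a block and all libraries they were called (limma adjusted p = 0.0127, 0.00963 and 0.0311).

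Of 12 tested adipokines and their receptors, 3 rose, 1 fell and 8 did not pass, with a median of 0.35. Cdh13, T-cadherin, which binds adiponectin at the cell surface, was at 63.4 ± 26.8 FPKM in cFos and 10.8 ± 6.96 FPKM in Luc (log2 difference 2.58, SE 0.46, limma adjusted p = 0.0150, and 0.0560 without cFos 2). It was higher in all 4 clones, in which Adipoq itself was lower. Apln, the peptide apelin, was at 12.2 ± 2.78 FPKM in cFos and 4.89 ± 2.85 FPKM in Luc. C1qtnf6, a relative of adiponectin, was at 15.5 ± 4.11 FPKM in cFos and 31.5 ± 7.37 FPKM in Luc. The call of Apln ended without any library but Luc 12 (limma adjusted p up to 0.116). That of C1qtnf6 ended without any but Luc 4 or cFos 12 (limma adjusted p up to 0.0970). With the clone as a block and all libraries, Cdh13, Apln and C1qtnf6 were called (limma adjusted p = 0.0102, 0.0114 and 0.0457). The adiponectin receptor gene Adipor1 and the lipase inhibitor gene Angptl4 were at 57.7 ± 9.10 and 59.3 ± 20.3 FPKM in cFos, against 45.4 ± 5.03 and 42.6 ± 17.6 FPKM in Luc, and did not pass. Cmklr1, the chemerin receptor, stayed under 1 FPKM in every library, and Lep, the gene of the hormone leptin, was at 0 in all 8.

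Of 20 tested pro-adipogenic transcription factor genes, 1 rose, none fell and 19 did not pass. Klf4, a zinc finger factor that acts early in fat cell formation in culture, was at 23.3 ± 8.81 FPKM in cFos and 4.96 ± 2.46 FPKM in Luc (log2 difference 2.16, SE 0.36, limma adjusted p = 0.0108). Ebf1, Nr3c1 and Rxra, the retinoid receptor that pairs with PPARG, were at 25.1 ± 10.1, 28.7 ± 2.63 and 16.9 ± 3.18 FPKM in cFos, against 61.3 ± 50.4, 20.0 ± 5.89 and 22.6 ± 6.84 FPKM in Luc, and did not pass, though Nr3c1, the glucocorticoid receptor gene, passed without Luc 8 (limma adjusted p = 0.0212). With the clone as a block Nr1h3 and Klf15, which are expressed late in fat cell formation, also fell, at 1.84 ± 1.51 and 0.990 ± 0.443 FPKM in cFos and 4.76 ± 3.19 and 3.27 ± 2.28 FPKM in Luc (limma adjusted p = 0.0153 and 0.0415 in that fit), a pair named after their values were seen.

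Of 21 tested anti-adipogenic genes, 1 rose, 1 fell and 19 did not pass. Klf2, which represses the Pparg promoter in cultured preadipocytes, was at 3.64 ± 1.15 FPKM in cFos and 16.6 ± 2.91 FPKM in Luc (log2 difference -2.06, SE 0.21, limma adjusted p = 0.00180), a call held without each library. In the blocked fit Id2, an inhibitor of helix-loop-helix factors, also fell (log2 difference -1.10, limma adjusted p = 0.00559). The rise was that of Sox9, the cartilage factor, with a log2 difference of 0.93. Ddit3, Wwtr1 and Ncor1 were the most abundant of this list, at 50.6 ± 12.2, 27.4 ± 6.93 and 26.4 ± 1.90 FPKM in cFos and 36.9 ± 15.7, 24.5 ± 5.001 and 30.2 ± 3.72 FPKM in Luc, and did not pass.

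Fatty acid uptake, binding and activation genes gave no call among 21 tested (limma), with 2 higher and 2 lower at an unadjusted p under 0.05, but in the blocked fit 1 rose and 2 fell. The rise was that of Vldlr, a receptor for triglyceride-rich lipoproteins (log2 difference 1.49, limma adjusted p = 0.0208), and the falls were those of Lrp1 and of Fabp3, a fatty acid-binding protein of muscle (-0.90, limma adjusted p = 0.0205). The most abundant were Dbi, Lrp1 and Got2, at 259.6 ± 73.0, 49.8 ± 7.08 and 79.3 ± 5.34 FPKM in cFos and 199.7 ± 43.7, 88.4 ± 25.7 and 95.3 ± 14.2 FPKM in Luc. Lrp1, a lipoprotein receptor, had a limma adjusted p of 0.0540, and of 0.0167 with the clone as a block. The relatives of Acsl1 did not pass, Acsl4 with a log2 difference of 0.58, Acsl3 with -0.11 and Acsl5 with -0.12.

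Of 20 tested genes of fat cell function, 1 fell, none rose and 19 did not pass. Irs1, which relays the insulin signal, was at 1.47 ± 0.437 FPKM in cFos and 12.3 ± 2.93 FPKM in Luc (log2 difference -2.69, SE 0.23, limma adjusted p = 6.80e-04), and held without each library. Hp, the secreted haemoglobin binder haptoglobin, was at 15.2 ± 7.77 FPKM in cFos and 187 ± 162 FPKM in Luc, lower in all 4 clones (limma adjusted p = 0.0880, 0.00820 in the blocked fit and 0.00867 without Luc 12). Scd2 and Acadm were at 222 ± 66.5 and 194 ± 58.4 FPKM in cFos, against 171 ± 44.4 and 122 ± 50.8 FPKM in Luc, and did not pass. Aoc3, an amine oxidase of the fat cell surface, was at 4.26, 6.40, 18.3 and 5.70 FPKM in cFos clones 2, 4, 8 and 12, against 36.1, 13.2, 80.8 and 13.2 FPKM in Luc, and fell in the blocked fit (limma adjusted p = 0.0238). Of the 28 genes on this list 4 stayed under 1 FPKM in every library.

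Of 16 tested marrow stromal and preadipocyte markers, 1 rose, Pdgfrb, 1 fell, Cxcl12, and 14 did not pass. In the blocked fit Grem1, a secreted inhibitor of bone morphogenetic proteins, also fell (log2 difference -2.06, limma adjusted p = 0.0440). Cxcl12, which marrow stromal cells of fat lineage share with Adipoq, was at 359 ± 202 FPKM in cFos and 3364 ± 2680 FPKM in Luc (limma adjusted p = 0.0154, and 0.0558 without cFos 2). The call of Pdgfrb, a growth factor receptor, ended without Luc 2, Luc 8, Luc 12, cFos 2, cFos 4 or cFos 8 (limma adjusted p up to 0.129). With the clone as a block and all libraries, Pdgfrb and Cxcl12 were called (limma adjusted p = 0.0213 and 0.00954).

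**Figure D4:**
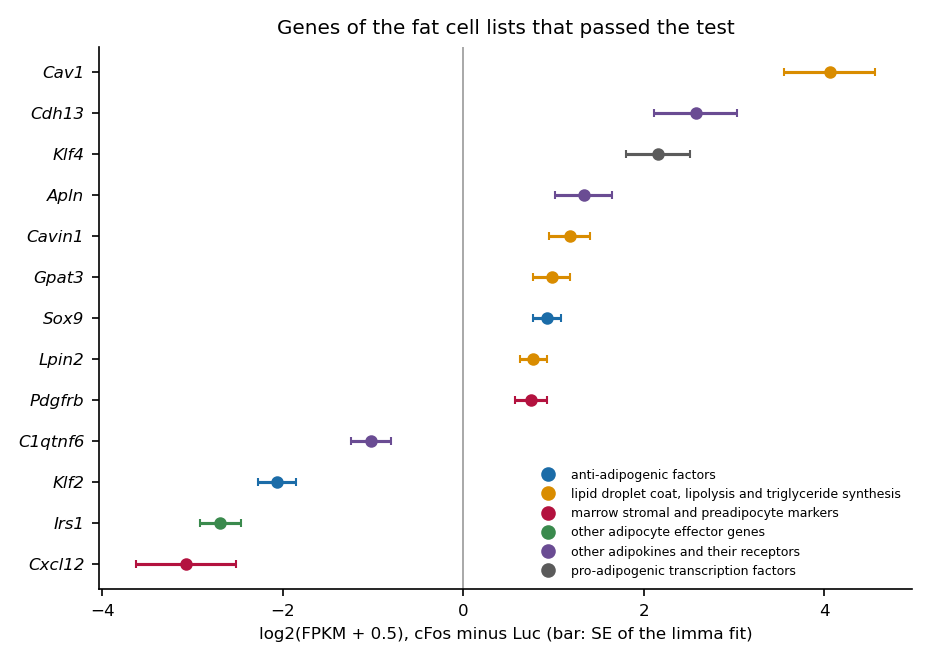
Log2 difference (cFos minus Luc, FPKM plus 0.5) with the SE of the limma fit for 13 of the 14 genes of the 9 lists that passed the test, coloured by list. Cav1 has the largest rise and Cxcl12 the largest fall among them. The lipid droplet and triglyceride list holds 4 of the rises, Cav1, Cavin1, Gpat3 and Lpin2, and no perilipin of it was called.

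Fabp4, Pparg and Lpl are also genes of macrophages, and Fabp4 and Pparg of endothelial cells, so their markers are given beside these results. Of the blood cell list, Cd14 was the 1 gene tested, at 1.68 ± 0.425 FPKM in cFos and 1.63 ± 0.759 FPKM in Luc, and did not pass, and Csf1r stayed at 0.303 FPKM or below. Lyz2 was at 0.0761, 0, 0.0291 and 0.165 FPKM in cFos clones 2, 4, 8 and 12, against 1.4004, 0.0542, 1.45 and 0.409 FPKM in Luc, lower in cFos in each clone, and its part in the results was not tested. Of 10 endothelial markers, 8 stayed under 1 FPKM in every library, and the list summed to 7.35 to 10.04 FPKM in cFos and 2.63 to 8.16 FPKM in Luc. Egfl7, the 1 tested, was at 6.24 ± 1.39 FPKM in cFos and 4.74 ± 2.21 FPKM in Luc and did not pass. Flt1 was at 2.27, 3.02, 0.315 and 2.70 FPKM in cFos clones 2, 4, 8 and 12, against 0.0307, 0.0544, 0.236 and 0.0753 FPKM in Luc. It was higher in cFos in each clone but under the filter, and its part in the results was not tested. The defining endothelial gene Cdh5 was listed at 0 in all 8 libraries, and Vwf stayed at 0.299 FPKM or below.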

How the data were processed

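Polyadenylated RNA of 8 cultures (TruSeq libraries, per the labels' protocols) was measured, 1 library per clone and virus. The authors deposited 1 Cufflinks table per library, with FPKM, its confidence limits and a coverage signal for each RefSeq transcript, per the file headers. CASAVA 1.8.2, TopHat, Cufflinks and the mm9 build are named in the submitters' processing notes; other versions, the annotation release and the use of strand were not given in these sources. FPKM was normalized to each library by the authors and keeps no read counts, so no count test was run. Depth was estimated from transcript length and the deposited coverage.

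From these values, 30769 entries were summed per symbol to 23500 genes, with names from a RefSeq table for 30227 entries and from GENCODE for 180; 362 stayed unnamed, with 0.828% of FPKM, and 3 genes without a usable status were left out. The 11162 genes reaching 1 FPKM in 4 or more libraries were tested as log2(FPKM + 0.5) with limma 3.58.1 in R 4.3.3, cFos against Luc over 8 libraries, with Benjamini-Hochberg adjusted p-values under 0.05 called. A log2 difference on this scale understates the change of low genes. The same fit with the clone as a block and a test of the clone terms were also run. The shared number means the same clone, as the labels state, and libraries of 1 clone deviated together (correlations of 0.174, 0.593, 0.349 and 0.437 for clones 2, 4, 8 and 12), so the numbers pair the libraries. With 1 culture per clone and virus, p-values measure the spread between these cultures. The share of a Pparg transcript was tested by exact permutation. The fits were tested on simulated data.

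The 10 genes and the 9 lists were chosen with earlier results of these data known. Named beside the 10 were list genes that were called (at most 6 a list, with 1 not reported here), the 3 most abundant of each list and the 5 genes most correlated with Pparg. Pnpla2, Acsl3, Acsl4, Acsl5, Cmklr1, Lep, Tyrobp, Cdh5 and list genes called in the blocked fit alone were added after their values were seen. So were Lipe, Abhd5, Mgll, G0s2, Dpp4, Pi16, Icam1, Thy1, Nt5e, Cd34, Apoe and Eng. Alternatives were other pseudocounts, filters, scalings, the largest entry per gene, the block and leaving out each library. The fits between arms that left out a library did not use the block and kept the other library of that clone. Python 3.11.15 was used for summaries and figures.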

Additional observations from a re-analysis of the deposited data

Results flagged for a closer look

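In 3 of 20 groups of 4 libraries examined for the 10 genes, the gap from 1 library to the nearest of the other 3 took up most of the group's range. The cut-off used marks about 1 in 20 groups by chance, if values are normally distributed and genes are not chosen on them. Here the gaps were taken on FPKM without logs, so that rate may not hold. These genes were also chosen on their values, so the cases are given as a description and no test is drawn from them. All 3 were the cFos library of clone 8, at 39.9 FPKM for Cebpa, 35.2 FPKM for Adipoq and 1.22 FPKM for Plin1, and the 3 cases are not independent because they come from 1 library.

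Lpl moved in opposite directions between clones. Its log2 difference between cFos and Luc was -1.88 in clone 2, -1.93 in clone 4 and -2.37 in clone 8, against 1.00 in clone 12, and with 1 library per clone and arm this difference between clones was not tested.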

How the results depend on the processing

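With the clone as a replicate block, 503 genes rose and 478 fell in cFos, against 326 and 293 without it, and 580 genes were called in both fits; list genes that fell numbered 13 with the block and 4 without it. Among the genes named by the rule, the block added the calls of Plin2, Lrp1 and Hp and ended none. Exchanging arms only within clones could not have called the Pparg transcript share, the smallest possible exact permutation p being 0.125. Without the filter on low values 175 genes fell in cFos, and C1qtnf6, Apln, Gpat3 and Pdgfrb were no longer called (limma adjusted p = 0.0685, 0.0943, 0.0562 and 0.0765). Upper quartile scaling also ended the call of C1qtnf6 (limma adjusted p = 0.0503). The limma clone test called 54 genes, 6 with a filter at 5 FPKM and 0 with no filter, where 2591 had an unadjusted p under 0.05. Leaving out each library gave 150 to 319 genes higher and 85 to 295 lower in cFos, 4 to 11 list genes higher and 2 to 7 lower, and 0 to 115 genes that differed between clones. The clone test called 0 genes without Luc 12, Luc 4 or cFos 4, with 1462, 933 and 1092 at an unadjusted p under 0.05. The fewest calls between arms came without cFos 2. The fits between arms that left out a library did not use the block, and their arms no longer held the same clones. Log2 differences of the members ranged from -2.20 to -1.03 for Cebpa, -2.65 to -0.26 for Adipoq, -2.15 to -0.052 for Rarres2 and 0.18 to 1.35 for Plin4. The difference in the Pparg share ranged from -2.45 to -1.33 points. Without Luc 4 its exact permutation p was 0.0286, the smallest possible for 4 against 3 libraries, in a run that does not pair the clones. Among the results recomputed, the sign changed for 2 genes that were not called, Wwtr1 (log2 difference 0.15, and -0.0097 without cFos 12) and Cd14 (0.075, and -0.10 without Luc 8 or -0.052 without cFos 4). The causes of these changes were not tested. FPKM gives no read counts, so counting error is known only as the deposited confidence limits.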
